A study of Xenopus tropicalis with 31 samples.

Results

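Open chromatin of sorted pax6 cells was compared with that of all cells of the regenerating tail in Xenopus tropicalis tadpoles 24 hours after tail amputation (24hpa). The comparison rests on 6 of the 31 ATAC-Seq libraries of the series, 3 pax6 and 3 all-tissue, and on the 124331 of 124349 windows of 400 bp that held at least 1 CPM (counts scaled to the library total) in at least 2 of these 6 libraries. Windows were centred on summits of open chromatin. A window's nearest gene and its distance to that gene's transcription start site (TSS) are those of the deposited annotation, on version 9.0 of the genome.

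By their genotype label, both groups were of the Xtr.Tg line that carries pax6:GFP together with cryga:RFP and actc1:RFP, in which the pax6 promoter drives GFP and the cryga and actc1 promoters drive RFP. The columns of the deposited count table name the all-tissue libraries WT instead. The label was followed here, and whether all-tissue tadpoles carried the transgene was not tested. Tails were amputated at NF stage 41, 3 days post fertilization, and the regenerating tips were collected at 24hpa, pooled, dissociated and passed through a cell sorter. The pax6 libraries were made from GFP+ cells and the all-tissue libraries from GFP+ and GFP- cells together, so the sorted population is also part of the tissue it was compared with. The labels number replicates 1 to 3 but do not say whether these came from separate clutches, so p-values measure the spread between libraries of a group, which may be technical. In the main model below, this spread was estimated over all groups of the series together.

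In ATAC-Seq a transposase inserts sequencing adapters where DNA is not wrapped in nucleosomes, and counts therefore gather at active promoters and enhancers. Pax6 is a paired-box homeodomain factor of neural progenitors, which in the tadpole tail lie along the central canal of the spinal cord and supply new cord tissue after amputation. The whole tail tip also holds epidermis, muscle, notochord, blood and connective tissue. In such bulk samples, fewer cells with an open site and a site that is less open in each cell cannot be told apart.

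The pax6 libraries held 6636214, 8755636 and 6291807 counts in windows and the all-tissue libraries 4401013, 6016925 and 6903814, so that all-tissue replicate 1 was the shallowest. Levels below are CPM after TMM normalization, which sets the libraries to a common scale, given for replicates 1, 2 and 3 in that order. Log2 fold changes are pax6 over all-tissue. The ± given with them is an approximate standard error, their absolute value divided by the square root of the test's F statistic. The median log2 fold change over all windows was -0.0023, with a 5th percentile of -0.52 and a 95th of 0.45.

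Few windows passed the test. In an edgeR quasi-likelihood model of the 27 usable samples of the series, 14 windows were higher and 37 lower in pax6 cells at a Benjamini-Hochberg adjusted p under 0.05, which is 0.0113% and 0.0298% of the windows tested. In all 51 the 3 pax6 libraries did not overlap the 3 all-tissue libraries, as in 12.9% of all windows. When the 6 libraries of 24hpa were fitted alone, 73 windows (0.0587%) were higher and 481 (0.387%) lower, and these 554 included all 51. A window is referred to as called where it passed in the model of 27 samples, and the fit of 6 libraries is named where it is used.

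Calls depended on single libraries. Their number was 9 without pax6 replicate 1, 9 without pax6 replicate 2, 29 without pax6 replicate 3, 107 without all-tissue replicate 1, 15 without all-tissue replicate 2 and 8 without all-tissue replicate 3. Without pax6 replicate 3 of 72hpa, which had 174 empty windows and enters through the shared spread, it was 128. The calls of 7 windows held in each of these fits, those nearest to bloc1s3, LOC100495583-like.1, Xetrov90001217m.g, pax6, LOC100488176-like, Xetrov90018473m.g and cplx4. The other 44 were lost in at least 1 of them.

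The marker of the sort was more open in the sorted cells at 1 of its 12 windows. This window, 4941 bp from the pax6 TSS (chromosome 4, 9853878 to 9854277), held 8.85, 8.58 and 8.88 CPM in pax6 libraries and 2.04, 2.96 and 1.6 CPM in all-tissue libraries. The pax6 values were nearly equal and every one of them was far from the highest all-tissue value. The fold change was 3.97 (log2 1.99 ± 0.29, edgeR adjusted p = 0.00027), the largest among the windows called higher.

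The other 11 windows nearest to pax6 were not called, with edgeR adjusted p of at least 0.44. No tested window lay within 500 bp of the pax6 TSS. Of the 11, the highest was 30133 bp away and held 3.45, 3.84 and 3.27 CPM in pax6 and 1.59, 2.14 and 1.6 CPM in all-tissue libraries, without overlap (log2 0.98 ± 0.35, adjusted p = 0.44). A window 39024 bp away had log2 0.85 ± 0.35 (adjusted p = 0.57). The lowest, 11366 bp away, held 11.5, 11.4 and 15.1 CPM in pax6 and 18.6, 13.2 and 12.9 CPM in all-tissue libraries (log2 -0.22 ± 0.19). The median of the 11 was 0.07, and their values lay on both sides of 0.

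The other promoters named in the transgene belong to actc1 and cryga. The TSS window of actc1, a sarcomeric actin of heart and embryonic muscle (chromosome 8, 91483554 to 91483953), held 9.899, 7.91 and 7.63 CPM in pax6 and 4.09, 2.795 and 2.47 CPM in all-tissue libraries. It was higher in all 3 pax6 libraries, by 2.79-fold (log2 1.48 ± 0.27, edgeR adjusted p = 0.016), and the call held in 2 of the 6 fits that leave out a library, with adjusted p up to 0.28. The other windows nearest to actc1, 8526 and 21979 bp away, had log2 0.05 ± 0.40 and log2 0.35 ± 0.33.

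No tested window was nearest to a gene with the symbol cryga. A window 12270 bp from LOC100495583-like.1 (chromosome 1, 85851036 to 85851435), whose identifier RefSeq pairs with crygdl.15, a gamma-crystallin gene of the lens, was called. It held 20.8, 25.7 and 27.1 CPM in pax6 and 10.4, 8.88 and 8.44 CPM in all-tissue libraries, 2.68-fold more (log2 1.42 ± 0.18, edgeR adjusted p = 1.5e-05). The other 4 windows nearest to that gene had log2 fold changes from -0.41 to 0.30 and were not called, and of 5 windows nearest to crygb, another gamma-crystallin gene, 0 were called in either edgeR fit (log2 from -0.29 to 0.19, smallest adjusted p = 0.96). Gamma-crystallin genes are similar copies of each other, so the place of reads among them is uncertain. Whether reads from the transgene entered the pax6, actc1 and crystallin counts was not tested.

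**Figure D1:**
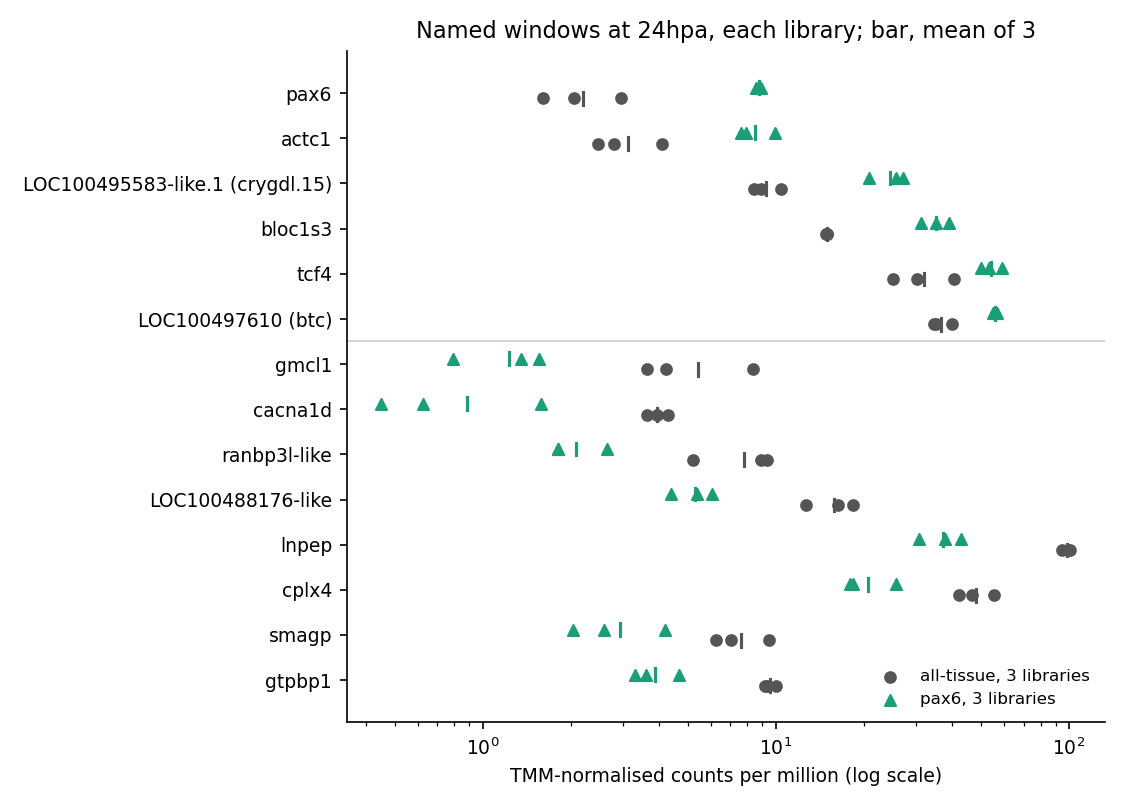
TMM-normalised CPM (x axis, log scale) in the 3 pax6 libraries (triangles) and the 3 all-tissue libraries (circles) of 24hpa, for 6 genes with a window called higher in pax6 (above the line) and 8 with a window called lower (below it). Short bars are means of 3. The pax6 window sits between 8.58 and 8.88 CPM in pax6 libraries and between 1.6 and 2.96 CPM in all-tissue libraries, and in no gene shown do the groups overlap.

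Among the 14 windows called higher, 4 had a nearest gene with a symbol, namely pax6, actc1, bloc1s3 and tcf4. The smallest p of all belonged to a window 16070 bp from bloc1s3, a subunit of the BLOC-1 complex that builds lysosome-related organelles (chromosome 8, 50187815 to 50188214). It held 35.2, 31.3 and 39.1 CPM in pax6 and 14.99, 14.8 and 14.98 CPM in all-tissue libraries. The all-tissue values were almost identical and lay beneath every pax6 value, a 2.35-fold difference (log2 1.23 ± 0.14, edgeR adjusted p = 8.8e-07).

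A window 2583 bp from tcf4, a bHLH E-protein that pairs with proneural factors (chromosome 1, 189632995 to 189633394), held 53.5, 49.9 and 59.04 CPM in pax6 and 30.2, 40.5 and 25.2 CPM in all-tissue libraries. The all-tissue libraries varied more than the pax6 ones, but the groups did not overlap, and the fold change was 1.69 (log2 0.76 ± 0.15, edgeR adjusted p = 0.028). The call held in 1 of the 6 fits that leave out a library, with adjusted p up to 0.45.

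LOC100497610, which RefSeq names btc (betacellulin, a ligand of epidermal growth factor receptors), was the gene with the most windows called higher, 2 of its 21. The first, 129714 bp from the TSS (chromosome 1, 70430478 to 70430877), held 55.2, 56.2 and 56.7 CPM in pax6 and 34.5, 39.8 and 35.2 CPM in all-tissue libraries (log2 0.62 ± 0.12, edgeR adjusted p = 0.025). The second, at 127760 bp, held 52.9, 56.7 and 57.2 CPM in pax6 and 37.5, 40.5 and 31.4 CPM in all-tissue libraries (log2 0.61 ± 0.13, adjusted p = 0.043). Both were even among pax6 libraries, but neither was called when any 1 of the 6 libraries was left out. In the fit of 6 libraries a window at 134517 bp was also higher (log2 0.57, adjusted p = 0.028), while one at 8533 bp was lower (log2 -0.88, adjusted p = 0.038).

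The other 7 windows called higher were nearest to gene models without a symbol or to no gene. A window 26851 bp from Xetrov90000717m.g held 5.399, 5.08 and 3.27 CPM in pax6 and 1.59, 1.15 and 1.16 CPM in all-tissue libraries (log2 1.84 ± 0.36, edgeR adjusted p = 0.028). One 668 bp from Xetrov90001217m.g held 11.5, 10.95 and 13.1 CPM in pax6 and 4.31, 4.604 and 3.2 CPM in all-tissue libraries (log2 1.56 ± 0.21, adjusted p = 3.2e-05). Of all 14, those within 500 bp of a TSS were the 2 of actc1 and Xetrov90027200m.g.

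Windows called lower in pax6 cells were more numerous, and 19 of the 37 had a nearest gene with a symbol. The largest difference lay 19359 bp from gmcl1, a BTB-domain protein homologous to germ cell-less of Drosophila (chromosome 3, 111852557 to 111852956). This window held 1.35, 0.791 and 1.56 CPM in pax6 and 3.63, 8.39 and 4.22 CPM in all-tissue libraries, with all-tissue replicate 2 the highest (log2 -2.19 ± 0.38, edgeR adjusted p = 0.0095). Its neighbours at 18446 and 16781 bp had log2 -1.66 ± 0.36 and log2 -1.63 ± 0.38 and passed in the fit of 6 libraries alone, so that 3 of the 11 gmcl1 windows were lower there. The TSS window of gmcl1 had log2 -0.83 ± 0.26 (adjusted p = 0.30).

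A window 9147 bp from cacna1d, the pore subunit of an L-type calcium channel of neurons and endocrine cells, held 0.45, 1.58 and 0.623 CPM in pax6 and 3.63, 4.28 and 3.93 CPM in all-tissue libraries (log2 -2.05 ± 0.42, edgeR adjusted p = 0.039). Near ranbp3l-like, named for a factor that exports BMP-activated Smads from the nucleus, a window held 1.8, 1.81 and 2.65 CPM in pax6 and 5.22, 8.88 and 9.31 CPM in all-tissue libraries (log2 -1.95 ± 0.37, adjusted p = 0.034). Both windows had low counts in pax6 cells, and no pax6 library reached the lowest all-tissue value.

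Other distal windows had larger counts. A window 61426 bp from lnpep, a membrane aminopeptidase (chromosome 1, 173155721 to 173156120), held 30.7, 42.9 and 37.7 CPM in pax6 and 101, 94.4 and 99.2 CPM in all-tissue libraries (log2 -1.40 ± 0.23). Its edgeR adjusted p was 0.023 in the model of 27 samples and 1.1e-10 in the fit of 6 libraries. A window 10054 bp from cplx4, a complexin that binds SNARE proteins at synapses of the retina, held 25.6, 18.3 and 17.9 CPM in pax6 and 42.2, 55.4 and 46.7 CPM in all-tissue libraries (log2 -1.23 ± 0.17, adjusted p = 0.00027). In these windows the groups were far apart in relation to their spread.

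A window 6636 bp from LOC100488176-like held 5.399, 4.404 and 6.08 CPM in pax6 and 12.7, 16.3 and 18.3 CPM in all-tissue libraries (log2 -1.61 ± 0.20, edgeR adjusted p = 1.5e-05). A window 204740 bp from LOC100170420, for which RefSeq lists the synonym txn (thioredoxin, a redox protein), held 47.4, 57.4 and 59.97 CPM in pax6 and 82.4, 96.5 and 75.8 CPM in all-tissue libraries (log2 -0.63 ± 0.12, adjusted p = 0.028). The first difference was large and its call held without any single library, and the second was small at a strong site.

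Further distal windows with a symbol were those of tcp1, a subunit of the TRiC chaperonin (log2 -1.09 ± 0.22, edgeR adjusted p = 0.039), mrpl48-like, named for a mitochondrial ribosomal protein (log2 -1.05 ± 0.21, adjusted p = 0.037), and fhdc1, a formin that acts on actin and microtubules (log2 -1.02 ± 0.21, adjusted p = 0.039). At tcp1, the window held 4.05, 4.404 and 4.21 CPM in pax6 and 6.81, 9.37 and 10.5 CPM in all-tissue libraries. The groups were apart, with the wider spread among the all-tissue libraries.

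Promoters made up a larger share of the windows lower in pax6 cells than of all windows. A TSS lay within 500 bp of 12 of the 37 windows called lower (32.4%) and of 253 of the 481 that were lower in the fit of 6 libraries (52.6%), beside 8.67% of all windows. Of the 10774 windows within 500 bp of a TSS, 0.111% were called lower and 0.0186% higher. These were 2.35% and 0.0371% in the fit of 6 libraries. Of the 12 called lower, 10 had a gene symbol, 1 was LOC101733171, for which RefSeq lists the synonym hist2h2bf (a histone H2B), and 1 was a model without a name.

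Among these promoters were those of chromatin and transcription factors. The smarcd2 promoter, of a subunit of the SWI/SNF remodelling complex, held 7.35, 6.66 and 9.502 CPM in pax6 and 13.4, 14.96 and 18.6 CPM in all-tissue libraries (log2 -1.03 ± 0.18, edgeR adjusted p = 0.013). The tlk2 promoter, of a kinase of chromatin assembly, held 6.45, 5.31 and 5.296 CPM in pax6 and 10.4, 13.6 and 13.5 CPM in all-tissue libraries (log2 -1.16 ± 0.21, adjusted p = 0.016). Both promoters lie on chromosome 10, and both were open in all 6 libraries.

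The tle4 promoter, of a Groucho co-repressor, held 5.55, 5.76 and 7.94 CPM in pax6 and 11.4, 15.6 and 14.4 CPM in all-tissue libraries (log2 -1.13 ± 0.21, edgeR adjusted p = 0.016). The e2f8 promoter, of an atypical E2F repressor of the cell cycle, held 3.75, 4.18 and 4.52 CPM in pax6 and 7.27, 8.55 and 11.1 CPM in all-tissue libraries (log2 -1.13 ± 0.23, adjusted p = 0.039). The histone gene LOC101733171 held 4.5, 3.27 and 6.85 CPM in pax6 and 7.72, 11.5 and 11.9 CPM in all-tissue libraries (log2 -1.15 ± 0.22, adjusted p = 0.028). At the histone gene the pax6 maximum came close to the all-tissue minimum.

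Of the promoters called lower, the largest difference was at smagp, a small adhesion glycoprotein of epithelial cells, with 4.2, 2.597 and 2.03 CPM in pax6 and 7.04, 6.25 and 9.45 CPM in all-tissue libraries (log2 -1.38 ± 0.26, edgeR adjusted p = 0.019). The gtpbp1 promoter, of a GTPase that acts on mRNA turnover, held 3.3, 3.61 and 4.67 CPM in pax6 and 9.31, 9.21 and 10.03 CPM in all-tissue libraries (log2 -1.31 ± 0.24, adjusted p = 0.016). The highest pax6 value was far from the lowest all-tissue value. The others were usp25, a deubiquitinase (log2 -1.25 ± 0.25), tacc1-like, named for a centrosome-associated protein (log2 -1.18 ± 0.24), itsn1-like, named for an endocytic scaffold (log2 -1.02 ± 0.21), and itfg2, a subunit of the KICSTOR complex that restrains mTORC1 (log2 -0.90 ± 0.18), with adjusted p from 0.028 to 0.041.

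The shift of promoters was also seen over windows that were not called. The median log2 fold change was -0.26 over all windows within 500 bp of a TSS, of which 76.6% were below 0, and -0.38 over the 6102 windows that contain a TSS. It was -0.09 for windows 1 to 500 bp away, -0.01 from there to 5000 bp, and 0.02 in both classes of windows farther away. The median within 500 bp ranged from -0.32 without all-tissue replicate 1 to -0.17 without all-tissue replicate 3.

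**Figure D2:**
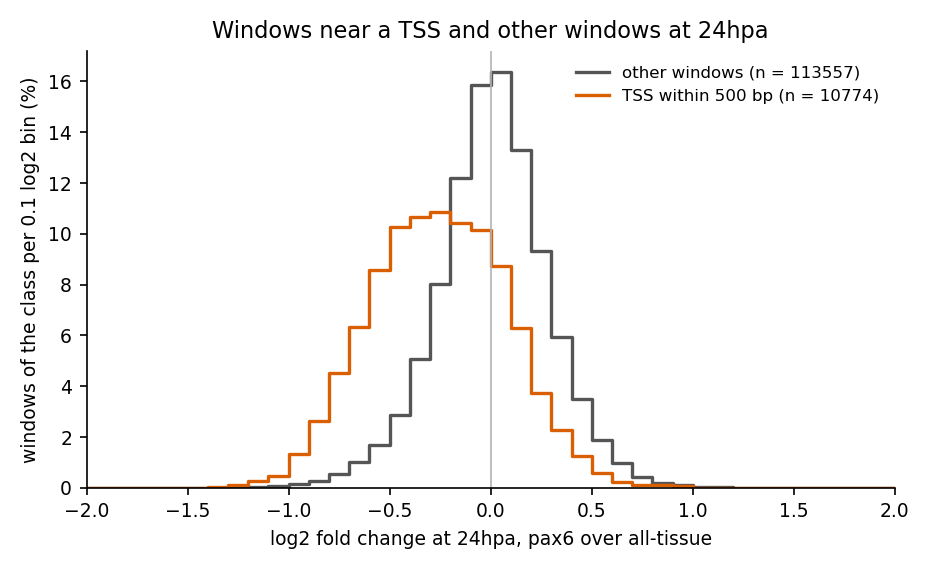
Distribution of the log2 fold change at 24hpa (x axis) for windows within 500 bp of a TSS and for all other windows, as the percentage of the class in each bin (y axis). The curve of the 10774 windows near a TSS is shifted to the left of that of the 113557 others, with medians of -0.26 and 0.01.

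As a share of all counts, windows within 500 bp of a TSS took 8.31%, 8.11% and 8.55% in pax6 libraries and 8.61%, 9.47% and 10.2% in all-tissue libraries. The groups did not overlap, although all-tissue replicate 1 was close to the pax6 values. The means were 8.33% ± 0.223 (SD, n = 3) and 9.42% ± 0.788 (SD, n = 3), a difference of -1.09 percentage points. A two-sided exact permutation test gave p = 0.10, the smallest that 3 against 3 libraries allow. At 72hpa the shares were 8.21% ± 0.151 and 9.38% ± 0.406 (SD, n = 3 each), also without overlap, whereas at 0hpa (n = 2 each) they were 8.46% and 8.0% and overlapped. A library's overall enrichment for open sites moves this share too, and its part in the promoter calls was not tested.

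**Figure D3:**
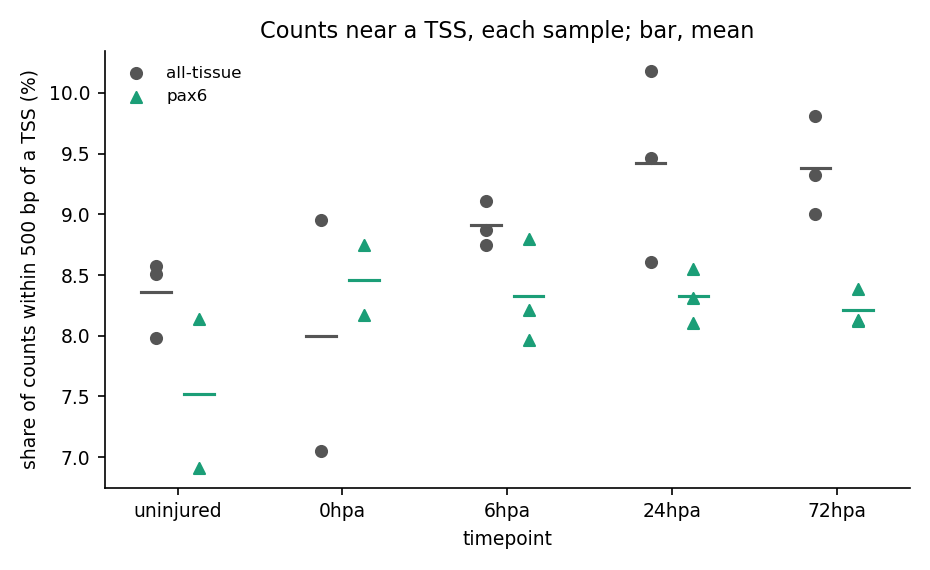
Share of counts in windows within 500 bp of a TSS (y axis, %, not starting at 0) for each sample at each timepoint (x axis), all-tissue as circles and pax6 as triangles, with means as bars. At 24hpa the pax6 samples lie between 8.11% and 8.55% and the all-tissue samples between 8.61% and 10.2%.

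The same windows were then read at the other timepoints, which share no library with 24hpa. Uninjured tails had 2 pax6 and 3 all-tissue samples and 0hpa had 2 and 2, where 6hpa and 72hpa had 3 and 3. Passing the test at 1 timepoint and not at another is therefore not a like comparison. Of the 14 windows called higher, 12 were also above 0 in uninjured tails, 13 at 0hpa, 13 at 6hpa and 14 at 72hpa, beside 50.5%, 49.9%, 50.1% and 50.2% of all windows. The windows of bloc1s3, LOC100495583-like.1 and Xetrov90001217m.g, 3 of the 14, were called higher at each of the 4 other timepoints, where 0.0105%, 0.00563%, 0.0426% and 0.0933% of all windows were. For bloc1s3 the log2 fold changes were 1.18, 1.27, 1.39, 1.23 and 1.00 in uninjured tails and at 0hpa, 6hpa, 24hpa and 72hpa. The pax6 window had 1.26, 1.55, 1.51, 1.99 and 1.35 in the same order and passed at 6hpa and 72hpa, but not in uninjured tails or at 0hpa (edgeR adjusted p = 0.13 and 0.10). The actc1 promoter had 0.97, 1.26, 1.61, 1.48 and 1.33 and also passed at 6hpa and 72hpa, but not in uninjured tails or at 0hpa (adjusted p = 0.32 and 0.45).

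Among the windows called lower, those near and far from a TSS are described separately. The 25 that were farther than 500 bp from a TSS, or had no annotated gene, were below 0 in 24 cases in uninjured tails, 18 at 0hpa, 25 at 6hpa and 25 at 72hpa, beside 48.0%, 50.9%, 48.6% and 47.4% of all such windows. For lnpep the log2 fold changes hardly moved (-1.32, -1.32, -1.33, -1.40 and -1.46), and for cacna1d they were -1.58, -2.14, -1.86, -2.05 and -2.84. The 12 within 500 bp of a TSS were below 0 in 7 cases in uninjured tails, 1 at 0hpa, 9 at 6hpa and 12 at 72hpa, beside 65.2%, 41.2%, 63.9% and 74.8% of all windows near a TSS. Their medians were -0.10, 0.33, -0.34, -1.15 and -0.77 in order of time, and the gtpbp1 promoter gave -0.27, 1.08, 0.12, -1.31 and -0.91. Across all 124331 windows, which share their libraries, the fold changes at 24hpa had a Pearson correlation of 0.21 with those at 72hpa, 0.07 at 6hpa, -0.03 at 0hpa and 0.11 in uninjured tails.

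**Figure D4:**
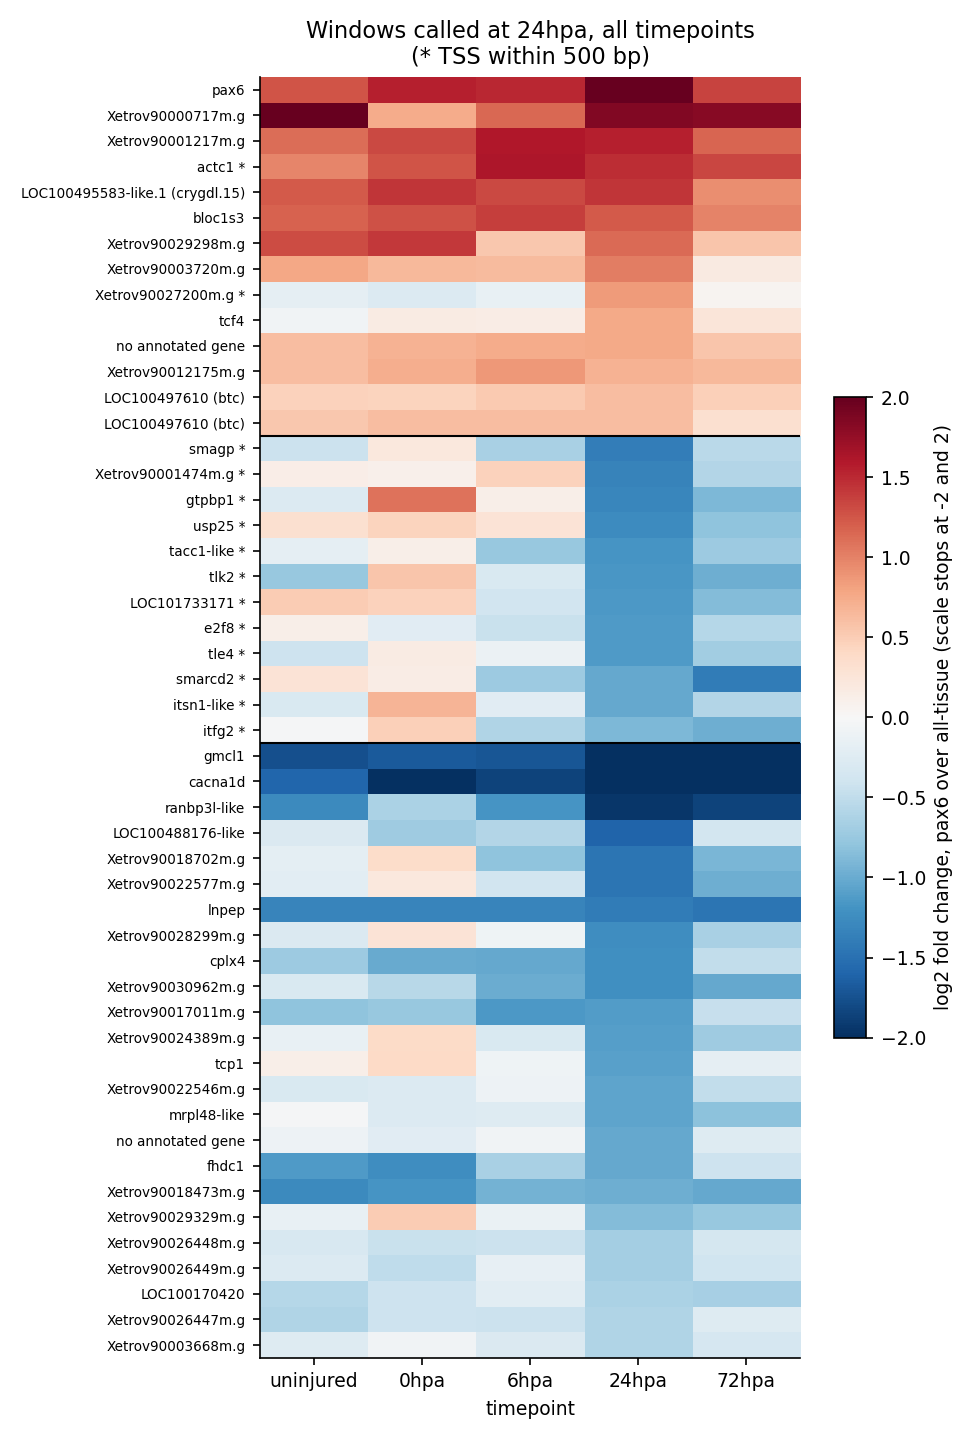
Log2 fold change, pax6 over all-tissue, at 5 timepoints (columns) for the windows called at 24hpa (one line each, by nearest gene, with 1 of the 51 not shown), in red where pax6 was higher and in blue where it was lower. An asterisk marks a TSS within 500 bp. The 14 windows called higher are red in most columns, while the 12 promoters called lower are all blue at 24hpa and 72hpa, 9 of them at 6hpa, 7 in uninjured tails and 1 at 0hpa.

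A difference particular to 24hpa was tested as the tissue difference at 24hpa minus the mean of the 4 other timepoints. It passed for 1 window of 124331 (0.000804%), 5942 bp from Xetrov90029361m.g, at an edgeR adjusted p of 0.048. There the pax6 libraries held 29.7, 29.5 and 32.7 CPM and the all-tissue libraries 22.7, 21.9 and 24.4 CPM at 24hpa. The groups were apart, yet the difference at 24hpa was itself not called (log2 0.41 ± 0.13, adjusted p = 0.29). The test passed for 0 windows when any 1 of the 6 libraries was left out.

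The next windows by p were those of Xetrov90030945m.g, med10, a Mediator subunit, tfam-like, named for a mitochondrial transcription factor, and LOC100490847, each with an edgeR adjusted p of 0.20. The med10 window, 129928 bp from the TSS, held 10.05, 7.45 and 10.4 CPM in pax6 and 2.73, 5.43 and 5.09 CPM in all-tissue libraries at 24hpa, and its log2 fold changes were -0.39, -0.42, -0.02, 1.01 and -0.34 in order of time. For tfam-like they were -0.21, -0.20, -0.30, 0.77 and -0.23. For tcf4 they were -0.07, 0.17, 0.14, 0.76 and 0.24, and the difference of 24hpa from the other timepoints was 0.64 (edgeR adjusted p = 0.47). At med10, tfam-like and tcf4 the value of 24hpa stood highest, without passing the adjustment. These windows were chosen by their values at 24hpa, so that a high value there follows in part from the choice.

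Genes of the tail's cell types, of growth and of regeneration were read from 12 lists, all by nearest gene. Over all lists, the members with a called window were pax6 and actc1. Among 291 windows of neural progenitor and spinal cord patterning genes, that of pax6 was called. At an unadjusted edgeR p under 0.05 there were 6 higher and 7 lower. Of all 124331 windows 6.99% passed so, 3188 higher and 5503 lower. The median of the list's 17 windows near a TSS was -0.30, with 12 below 0, beside -0.26 for all windows near a TSS. Without all-tissue replicate 3 the list's median and that of all windows near a TSS were both -0.17. On the lower side were sox2, a neural stem cell factor (log2 -0.53 ± 0.23), msi1, an RNA-binding protein of progenitors (log2 -0.50 ± 0.27), and irx3, a patterning homeodomain factor (log2 -0.61 ± 0.25), and the highest was dbx2, a homeodomain factor of interneuron progenitors (log2 0.57 ± 0.41), none of which passed the test.

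Neuron differentiation genes had 0 called windows of 211, with 8 higher and 3 lower at an unadjusted edgeR p under 0.05 and 0 called by DESeq2. The median at their 13 promoter windows was -0.09, and 0.06 without all-tissue replicate 3, beside -0.26 and -0.17 for all windows near a TSS. Some of the 13 contain a TSS and others lie 1 to 500 bp away. Over all windows these classes had medians of -0.38 and -0.09, and the list was not matched for this placement. Axon guidance and neurite growth genes had 0 called of 413, with 13 higher and 14 lower at an unadjusted p under 0.05 and 0 by DESeq2. The median at their 20 promoter windows was -0.32, with 13 below 0, and -0.27 without all-tissue replicate 3. Those at an unadjusted p under 0.05 were 5.21% of the neuron and 6.54% of the axon windows, beside 6.99% of all windows. Of the 413 axon windows, 1 was higher and 3 were lower in the fit of 6 libraries. In that fit 0.0587% of all windows were higher and 0.387% lower. Of all windows within 500 bp of a TSS, 2.35% were lower. The higher one, 26254 bp from cntn1, an axonal adhesion molecule, held 6.15, 6.21 and 6.08 CPM in pax6 and 3.63, 2.795 and 2.91 CPM in all-tissue libraries (adjusted p = 0.045 in that edgeR fit).

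The lower ones included the promoters of ephrin receptors that steer axons. The epha4 promoter held 9.15, 3.95 and 5.92 CPM in pax6 and 13.6, 11.02 and 12.5 CPM in all-tissue libraries (log2 -0.98, adjusted p = 0.016 in the edgeR fit of 6 libraries). The ephb1 promoter held 4.5, 4.52 and 3.58 CPM in pax6 and 7.95, 7.56 and 8.29 CPM in all-tissue libraries (log2 -0.90, adjusted p = 0.043). The last was a window 276257 bp from sema6a, a semaphorin (log2 -1.62, adjusted p = 0.041). In the model of 27 samples these windows had adjusted p from 0.11 to 0.30.

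A list of 16 genes, some of those that the study named for 24hpa, rests on these samples, so its counts are no independent evidence. The study named most of these genes from changes between timepoints within pax6 libraries, not from pax6 against all-tissue libraries. Changes between timepoints within pax6 libraries were not tested here, so the counts below neither repeat nor contradict that choice. The list had 0 called of 244 windows in edgeR, with 12 higher and 11 lower at an unadjusted p under 0.05 and 0 called by DESeq2. These 23 were 9.43% of the list. Of all windows tested 6.99% passed so, 3188 higher and 5503 lower. In the fit of 6 libraries the windows of sema6a and of pcdh18, a protocadherin (log2 -1.31, adjusted p = 0.047), were lower. These were 2 of the 244, beside 0.387% of all windows lower in that fit. For meis1, a TALE homeodomain factor, the window with the smallest p of 21 was also nearest to the TSS, 630 bp away, and held 6.15, 6.78 and 7.01 CPM in pax6 and 9.54, 10.03 and 8.87 CPM in all-tissue libraries (log2 -0.51 ± 0.25, adjusted p = 0.71). For pbx3, a TALE partner of Hox factors, it was the TSS window of 11, with 4.5, 3.27 and 4.52 CPM in pax6 and 2.27, 2.63 and 2.47 CPM in all-tissue libraries (log2 0.71 ± 0.32, adjusted p = 0.65). At these 2 windows the pax6 libraries were all lower for meis1 and all higher for pbx3, without overlap, and neither passed the test. Each was picked as the smallest p of its gene, and 12.9% of all windows were without overlap. Of all 21 meis1 windows 11 were below 0, and of the 11 of pbx3, 3 were.

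Epidermal genes had the lowest promoter median of the lists. All 19 promoter windows of the epidermis and epithelium list, from 18 genes, were below 0, beside 76.6% of all windows near a TSS, and their median was -0.54. Most of the 19 contain a TSS, and of all windows that do, 87.0% were below 0, with a median of -0.38. Summed over the 19, pax6 libraries held 84.3, 86.3 and 90.3 CPM and all-tissue libraries 105, 131 and 149 CPM. The sums did not overlap, and all-tissue replicate 3 was the highest. Those of the 9 promoter windows of the blood, immune and vessel list did not overlap either, with 73.2, 69.0 and 71.3 CPM in pax6 and 80.8, 81.4 and 83.9 CPM in all-tissue libraries. In the other lists, that of the transgene promoters aside, the sums overlapped. The share of counts in all windows near a TSS was without overlap as well. In uninjured tails and at 0hpa, 6hpa and 72hpa the promoter medians of the epidermis and epithelium list were -0.32, 0.02, -0.26 and -0.55. Over all windows near a TSS they were -0.12, 0.08, -0.11 and -0.25 in the same order. The part of epidermal cells in the promoter shift was not tested.

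No single epidermal promoter passed the test. The esrp1 promoter, of an epithelial splicing regulator, held 4.35, 4.07 and 6.698 CPM in pax6 and 7.27, 8.39 and 11.1 CPM in all-tissue libraries (log2 -0.86 ± 0.29, edgeR adjusted p = 0.39). The klf4 promoter, of a factor of barrier formation, held 4.2, 6.21 and 6.08 CPM in pax6 and 5.905, 10.2 and 11.9 CPM in all-tissue libraries (log2 -0.79 ± 0.24, adjusted p = 0.27). Of all 214 windows of the list 0 were called, with 2 higher and 26 lower at an unadjusted edgeR p under 0.05 and 0 called by DESeq2. These 28 were 13.1% of the list, beside 6.99% of all windows tested, of which 3188 were higher and 5503 lower. In the fit of 6 libraries, windows near the keratin genes krt12 (log2 -1.10, adjusted p = 0.025) and krt8 (log2 -1.09, adjusted p = 0.028) and near pkp3, a plakophilin of desmosomes (log2 -1.03, adjusted p = 0.0499), were lower. These were 3 of the 214, beside 0.387% of all windows lower in that fit.

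Cell cycle genes had a median of -0.36 over 22 promoter windows, of which 18 were below 0, beside 76.6% of all windows near a TSS, and the median was -0.22 without all-tissue replicate 3. Most promoter windows of this list and of the regeneration signalling list contain a TSS, a class with a median of -0.38 and 87.0% below 0. The lowest cell cycle promoter windows were the TSS windows of cdc20, an activator of the anaphase-promoting complex (log2 -0.79 ± 0.34), and cdk1, the mitotic kinase (log2 -0.76 ± 0.24). The other windows near the cdc20 TSS, 154 and 354 bp away, had log2 fold changes of -0.02 and 0.23. Of the 116 windows of cell cycle genes 0 were called in edgeR, with 3 higher and 6 lower at an unadjusted p under 0.05 and 0 called by DESeq2. These 9 were 7.76% of the list, beside 6.99% of all windows tested. Regeneration signalling genes had a median of -0.35 over 24 promoter windows, or -0.17 without all-tissue replicate 3, when that of all windows near a TSS was also -0.17, with 0 called of 394, 13 higher and 14 lower at an unadjusted p under 0.05 and 0 called by DESeq2. Those at an unadjusted p under 0.05 were 6.85% of this list. In the fit of 6 libraries, a window 8769 bp from fgfr1, a fibroblast growth factor receptor (log2 -0.93, adjusted p = 0.043), and the promoter of junb, an AP-1 subunit (log2 -0.73, adjusted p = 0.031), were lower. These were 2 of the 394, beside 0.387% of all windows and 2.35% of those within 500 bp of a TSS lower in that fit.

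Promoter medians were -0.01 for skeletal muscle, -0.24 for notochord, cartilage and sclerotome, -0.16 for blood, immune and vessel, and 0.03 for neural crest, glia and pigment, over 6 to 9 windows each. Single libraries moved these medians, to -0.18 for muscle without pax6 replicate 2 and 0.06 without all-tissue replicate 2, -0.049 for neural crest without all-tissue replicate 1, -0.05 for notochord without all-tissue replicate 3 and -0.29 for blood without all-tissue replicate 2. The median of all windows near a TSS moved too, from -0.32 to -0.17, the latter without all-tissue replicate 3. Over all windows, those that contain a TSS had a median of -0.38 and those 1 to 500 bp away one of -0.09. The lists were not matched for this placement. At an unadjusted edgeR p under 0.05, muscle had 7 higher and 3 lower of 94 windows (10.6%), and notochord 11 and 3 of 229 (6.11%). Blood had 6 and 4 of 179 (5.59%) and neural crest 2 and 3 of 80 (6.25%). Of all windows tested 6.99% passed so, 3188 higher and 5503 lower. Next to actc1, the highest muscle promoter was that of pvalb, parvalbumin of fast fibres (log2 0.97 ± 0.37, edgeR adjusted p = 0.51). In the fit of 6 libraries a window 6099 bp from csf1r, the macrophage growth factor receptor, was higher, with 7.799, 6.098 and 6.54 CPM in pax6 and 3.41, 2.96 and 3.93 CPM in all-tissue libraries (adjusted p = 0.046). A window 13551 bp from sox5, a factor of cartilage and neural crest, was higher too, with 17.5, 18.2 and 18.5 CPM in pax6 and 12.3, 11.5 and 10.9 CPM in all-tissue libraries (adjusted p = 0.024), and one near not, a notochord homeobox gene, was lower (log2 -0.59, adjusted p = 0.038). That is 1 higher of 179 windows of the blood list, and 1 higher and 1 lower of 229 of the notochord list. Over all windows 0.0587% were higher and 0.387% lower in that fit.

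**Figure D5:**
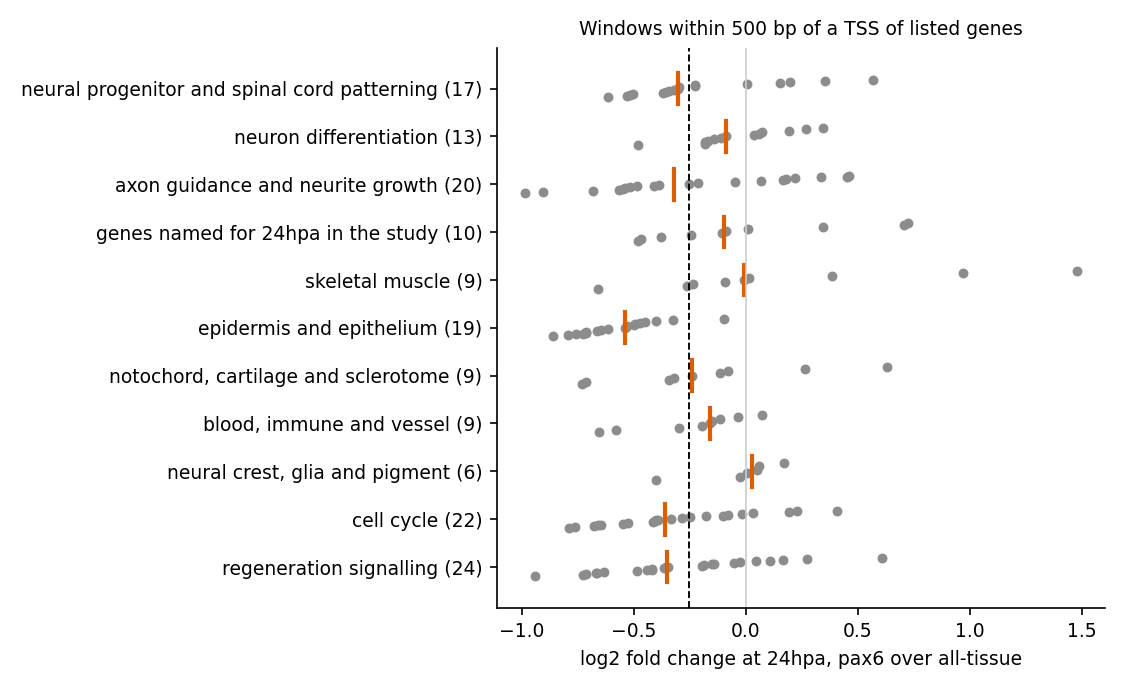
Log2 fold change at 24hpa (x axis) of each window within 500 bp of a TSS of the genes in the lists. Points are windows, orange bars are list medians and the dashed line is the median of all such windows (-0.26). All 19 epidermal points lie below 0.

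Further genes had several windows that passed in the fit of 6 libraries, and were picked for that. Over all windows, 0.0587% were higher and 0.387% lower in that fit. Of those within 500 bp of a TSS, 2.35% were lower. Of 31 windows near efcab6, an EF-hand protein, 2 were higher there, and the one 13760 bp from the TSS held 8.25, 7.45 and 10.6 CPM in pax6 and 2.73, 4.44 and 3.64 CPM in all-tissue libraries (adjusted p = 0.0055 in that edgeR fit). The other, at 17091 bp, held 12.3, 7.91 and 10.4 CPM in pax6 and 1.82, 6.25 and 2.04 CPM in all-tissue libraries (adjusted p = 0.021). In order of time the log2 fold changes of the first were -0.05, -0.03, 0.25, 1.24 and 0.21, and the difference of 24hpa from the other timepoints did not pass (edgeR adjusted p = 0.57).

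At vim.2, a vimentin gene of intermediate filaments, 2 of 4 windows were lower in the fit of 6 libraries. The one 1478 bp from the TSS held 10.5, 11.97 and 7.94 CPM in pax6 and 16.4, 20.2 and 18.03 CPM in all-tissue libraries (edgeR adjusted p = 0.0064), and the one at 2196 bp held 5.999, 6.32 and 6.698 CPM and 8.86, 13.2 and 12.1 CPM (adjusted p = 0.022). At tuba4b, an alpha-tubulin gene, the promoter (log2 -0.81, adjusted p = 0.026) and a window 6293 bp away (log2 -1.34, adjusted p = 0.0055) were lower. None of the efcab6, vim.2 and tuba4b windows passed in the model of 27 samples, where their smallest adjusted p was 0.057.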

How the data were processed

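Per the study's methods, the authors used Trim Galore for trimming and Bowtie2 for alignment (genome version 9.0), discarded what Picard marked as duplicates, took summits from MACS2 on merged alignments and obtained counts per window with featureCounts. The deposited values are raw counts per window of 400 bp. The deposited summit heights are -log10 q-values. The nearest gene came from a deposited table whose fold changes and p-values, the authors' own comparisons, were not used. Of 31 libraries, 29 were used as 27 samples. The 2 left out held 11 and 143 counts, and the second libraries of all-tissue uninjured and all-tissue 72hpa were summed with replicate 1 of their group, as labelled.

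Counts were fitted in R 4.3.3 with edgeR 4.0.16 (TMM, robust quasi-likelihood F test, 10 groups) over windows of at least 1 CPM in at least 2 of the 6 libraries, with Benjamini-Hochberg adjustment over all windows. Only the model of 27 samples was also run on simulated counts, with the same spread set for every window, and no result here rests on that run. Share of counts was tested with scipy 1.17.1. Alternatives were the 6 libraries alone, the authors' set of libraries, other normalizations, filters and thresholds, DESeq2 1.42.0, edgeR's likelihood ratio test, a replicate block and leaving out each library. Named were the windows of pax6, actc1 and a gamma-crystallin gene, called windows with a gene symbol, genes with the most windows called in either fit, list members called in either fit with promoter examples of lists, meis1, pbx3, and the 5 windows with the smallest p for a difference particular to 24hpa. Of the called windows with a symbol, 1 is not reported here. Other named windows were chosen after their values were seen. Members and lists were chosen with earlier results of these data known. RefSeq names come from assembly UCB_Xtro_10.0, and coordinates from the deposited files. Distances are without sign. Sequences were not used here.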

Additional observations from a re-analysis of the deposited data

Results flagged for a closer look

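The tissue difference 5942 bp from Xetrov90029361m.g (scaffold_532) departed from that at the other timepoints. The log2 fold change at 24hpa exceeded the mean of the other 4 by 0.85 ± 0.14 (unadjusted p = 3.9e-07, edgeR adjusted p = 0.048). It was -0.99 in uninjured tails, 0.21 at 0hpa, -0.55 at 6hpa, 0.41 at 24hpa and -0.43 at 72hpa, and pax6 was higher in 3 of 3 libraries at 24hpa. The window did not pass with DESeq2 size factors in edgeR or with total counts, where 0 windows passed, nor without any 1 of the 6 libraries.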

How the results depend on the processing

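No called window changed sign under any alternative run. Their groups did not overlap, so leaving out a library could not have reversed a sign. The 51 windows (14 higher, 37 lower) became 554 (73, 481) in the 6 libraries alone, 539 (71, 468) in the authors' set of libraries, 128 (26, 102) without pax6 replicate 3 of 72hpa, 258 (49, 209) with the likelihood ratio test, 54 (15, 39) with DESeq2, 51 (14, 37) with its size factors in edgeR, 42 (14, 28) with total counts, 51 with no filter and 52 with a filter of 5 CPM in 3 libraries. DESeq2 called 44 of the 51, and it gave an adjusted p to 64069 windows only. In the edgeR model of 27 samples, thresholds of 0.01 and 0.10 gave 10 (6, 4) and 150 (28, 122), and an unadjusted p under 0.01 gave 2599 (686, 1913). Leaving out 1 library gave 8 to 107 (4 to 14 higher, 4 to 93 lower): 8 without all-tissue replicate 3, 9 without pax6 replicate 1 or 2, 15 without all-tissue replicate 2, 29 without pax6 replicate 3 and 107 without all-tissue replicate 1. The cause was not tested. Same-numbered libraries had small positive correlations of their deviations (r = 0.03, 0.02 and 0.06), and libraries of other numbers had r from -0.055 to 0.029. Among them, pax6 replicate 2 and all-tissue replicate 1 correlated best with another number. Such small values over noisy windows cannot show whether libraries of the same number belong together. A replicate block gave 104 (19, 85) windows, which held all 51, and 649 (98, 551) in the 6 libraries alone. The 1 window particular to 24hpa became 0 with DESeq2 size factors, total counts, a threshold of 0.01 or any library left out, 6 in the authors' set, 9 with DESeq2, 13 with the likelihood ratio test, 1 with the block and 1928 at an unadjusted p under 0.01. The promoter median of -0.26 was -0.070 within 5000 bp and -0.32 to -0.17 with 1 library left out, and the share difference of -1.09 points was -1.5 to -0.71. With 1 library left out, uncalled pax6 windows that changed sign ranged from -0.29 to 0.17 (start 9844943), -0.22 to 0.0090 (9856011), -0.093 to 0.33 (9865937), -0.36 to 0.48 (9889705), -0.56 to 0.049 (9910453) and -0.51 to 0.18 (9947126). The median window held 4.89 CPM, and counting error at this depth limits the precision of a single window.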

Other observations

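Neighbouring windows on scaffold_149 were lower together in pax6 cells, a stretch chosen after its values were seen. Between 228231 and 295526, 20 of 20 windows had a log2 fold change below 0 at 24hpa (median -0.49, from -0.68 to -0.16), and 3 were called, nearest to Xetrov90026447m.g, Xetrov90026448m.g and Xetrov90026449m.g. All 20 were below 0 at each other timepoint too, with medians of -0.33 in uninjured tails, -0.43 at 0hpa, -0.42 at 6hpa and -0.36 at 72hpa. Summed over the stretch, pax6 libraries held 1284, 1248 and 1203 CPM and all-tissue libraries 1563, 1652 and 1415 CPM, without overlap.

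Chromosome 1 held 10.9% of the windows tested, 7 of the 14 called higher and 9 of the 37 called lower. Its stretch from 183010784 to 189990472, also chosen after its values were seen, held 706 windows (0.57%) and 2 of the 14 and 4 of the 37, among them those of tcf4 (higher) and of cplx4, ranbp3l-like and LOC100488176-like (lower).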
